A study of Arabidopsis thaliana with 6 samples.

Results

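Jasmonate is the lipid hormone that plants use in wounding, herbivore defence and fertility, and 34 Arabidopsis thaliana genes that make it, sense it or respond to it were followed here, out of 32833 genes counted. The 34 were listed by their known roles, with no threshold on their values: 10 genes of synthesis, 2 that modify the hormone, 2 that break it down, the receptor COI1, 12 JAZ repressors, the adaptor NINJA (AT4G28910), the transcription factors MYC2, MYC3 and MYC4, and 3 response genes. Earlier results of these data were known when the 34 were chosen, so their shares beside all tested genes are description only. All 34 are listed for every library, and 30 to 33 of them had counts in a given library. The libraries were 3′ RNA-seq of whole seedlings, 3 of wild type Col-0 and 3 of amiRNA-VQ1,10 (here also the amiRNA line), which carries a designed microRNA named after the genes VQ1 and VQ10 of a family of plant proteins that bind WRKY transcription factors. Both genotypes were 14 days old, raised on MS medium with 1% sucrose in long days (16 h of light with 150 µmol photons m-2 s-1, then 8 h of dark) at 21% O2, and collected 4 h after the start of the light period. The promoter that drives the artificial microRNA, and whether the 3 libraries of the line come from 1 or several transgenic lines, is not given in the sources used here.

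As background, the hormone is built from linolenic acid in the plastid, where 13-lipoxygenases, allene oxide synthase and allene oxide cyclases act in turn, and is finished in the peroxisome after OPR3. JAR1 couples it to isoleucine, and the conjugate brings JAZ repressors to the F-box protein COI1, which marks them for degradation. That frees MYC2 and its relatives to switch on target genes, among them vegetative storage proteins, lipoxygenase and the JAZ genes themselves, so that JAZ transcripts are widely used as a readout of ongoing signalling. MYC2 and the JAZ repressors are also known partners in crosstalk with abscisic acid, light and defence.

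Libraries held 926209 to 1329817 counts in genes, lowest in amiRNA-VQ1,10 replicate 2, which also stood apart on the first principal component (26.9% of the variance). On that component wild type lay at -15.7 to -8.00 and amiRNA-VQ1,10 at -3.57 to 31.3, with no overlap. VQ1 had 5, 1 and 2 counts in wild type and 0 in every amiRNA-VQ1,10 library, and VQ10 had 1 count in all, so that the targets were at the edge of detection. Levels below are CPM (counts per 1e+06 counts) on library sizes scaled by the TMM method of edgeR, and fold changes set the amiRNA line over wild type, on the log2 scale. In 3′ libraries a transcript yields reads from its end, so counts do not grow with transcript length. Leaf and root markers were present in all libraries, as whole seedlings should have. The 5 leaf markers summed to 12643 to 13009 CPM in wild type and 13576 to 14512 CPM in the amiRNA line, and the 6 root markers to 151 to 196 and 133 to 181 CPM. The 5 seed storage genes summed to 0 to 4.23 CPM in wild type and to 0 in amiRNA-VQ1,10, and the 4 floral organ genes to 13.5 to 22.9 and 14.1 to 16.2 CPM. In whole seedlings, fewer cells of a type and less RNA per cell cannot be told apart.

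None of the jasmonate genes passed in the comparison of genotypes. Of the 34 genes 23 had enough counts for the test, and of these 0 were higher and 0 were lower past a Benjamini-Hochberg adjusted p of 0.05 in the quasi-likelihood test of edgeR. Of all 12701 tested genes 0.102% passed, 0.0236% as higher and 0.0787% as lower. DESeq2 and limma-voom also called 0 of the 23. At an unadjusted p under 0.05 there were 2, VSP2 and MYC4, or 8.70% of the 23, beside 6.02% of all tested genes. No tested member had ranges that were separate between the genotypes, beside 10.4% of all tested genes. Of the 23 log2 fold changes 15 were below 0 (65.2%, against 49.3% of all tested genes), with a median of -0.042 against 0.0035 over all genes. They lay between -0.41 for AOC3 and 0.44 for AOC1. The 95% interval of the log2 fold change stayed between -1 and 1 for 22 of the 23, so that for those genes a change of 2-fold or more lay outside the interval; the same held for 88.1% of all tested genes. The exception was AOC1, whose interval reached 1.05.

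**Figure D1:**
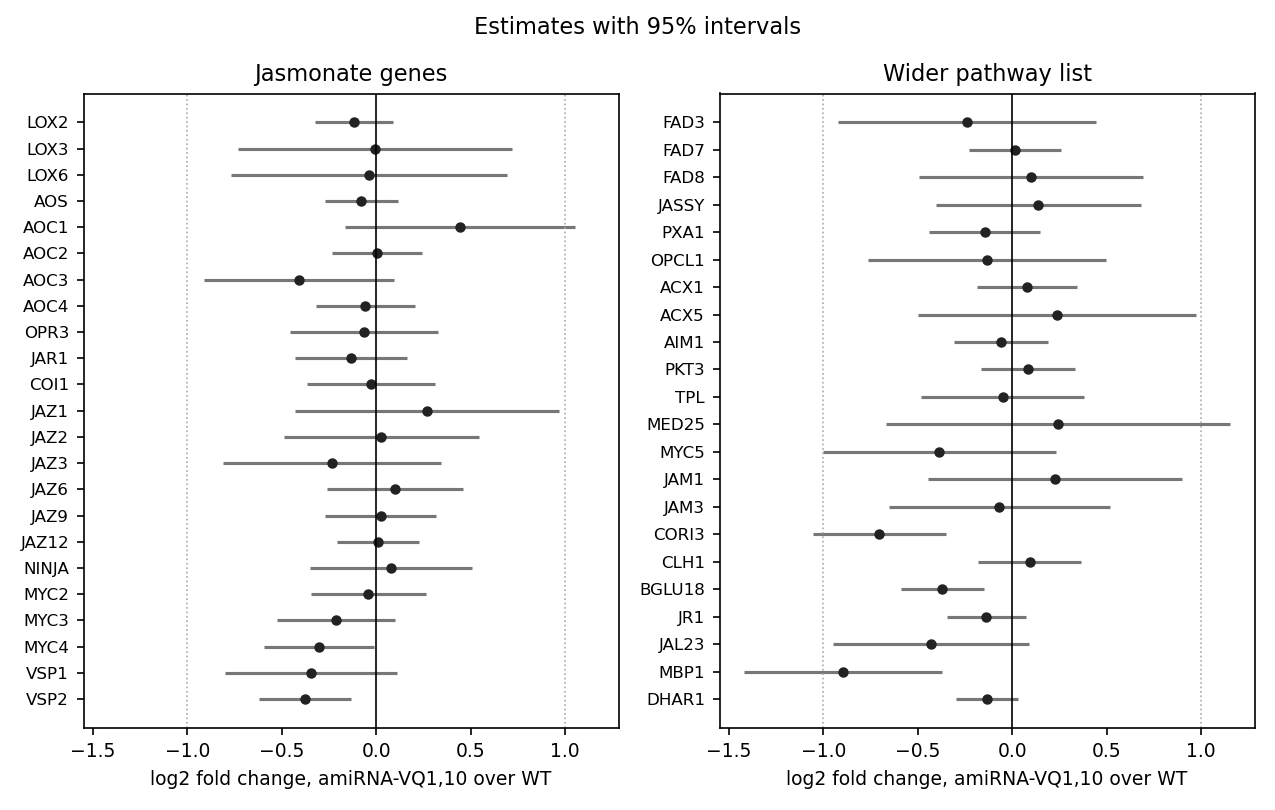
Log2 fold change (horizontal axis) of each tested jasmonate gene and of each tested gene of a wider pathway list, as points with 95% intervals; dotted lines mark -1 and 1. The intervals of VSP2 and MYC4 lie below 0 in the left panel, and those of CORI3, MBP1 and BGLU18 in the right panel; none of these passed after adjustment.

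Of the 10 genes of synthesis 9 were tested, and 0 of these passed or had an unadjusted p under 0.05 in edgeR. LOX2 (AT3G45140), the plastid lipoxygenase that supplies much of the jasmonate of wounded leaves, stood at 396, 336 and 301 CPM in wild type and at 291, 342 and 322 CPM in the amiRNA line. The highest and the lowest values belonged to replicate 1 of wild type and replicate 1 of amiRNA-VQ1,10, and the other 4 libraries were mixed. Its log2 fold change was -0.12 ± 0.10 (SE, n = 3 per genotype; 95% interval -0.32 to 0.09; edgeR adjusted p = 0.934). LOX2 held 88.9% to 96.1% of the counts of the 4 lipoxygenases in every library. LOX3 and LOX4, which act together in male fertility, and LOX6, known from early wound responses, made up the rest. LOX4 had 3 to 11 counts per library and was not tested.

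AOS (AT5G42650), the allene oxide synthase, converts the lipoxygenase product and is encoded by 1 gene. AOS stood at 329, 282 and 272 CPM in wild type and at 279, 270 and 288 CPM in the amiRNA line. Apart from wild type replicate 1 the libraries lay within a narrow band, and the log2 fold change was -0.08 ± 0.09 (SE; 95% interval -0.27 to 0.12; edgeR adjusted p = 0.967). OPR3 (AT2G06050), the peroxisomal reductase, stood at 30.5, 41.2 and 52.8 CPM in wild type and 41.3, 40.1 and 37.5 CPM in the amiRNA line. The wild type libraries lay both above and below all amiRNA-VQ1,10 libraries (log2 fold change -0.07 ± 0.19, SE; 95% interval -0.46 to 0.33).

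The 4 allene oxide cyclases, which set the stereochemistry of the product, summed to 287 ± 13.3 CPM in wild type and 283 ± 20.5 CPM in the amiRNA line (SD, n = 3). AOC2 (AT3G25770) held 45.3% to 49.8% of these counts and AOC4 31.2% to 42.5%. AOC1 and AOC3 contributed the small remainder, and their estimates had opposite signs. AOC1 (AT3G25760) stood at 16.1, 13.5 and 19.4 CPM in wild type and at 12.8, 34.6 and 20.4 CPM in the amiRNA line, high in amiRNA-VQ1,10 replicate 2 and not in replicate 1. Its log2 fold change was 0.44 ± 0.29 (SE; edgeR adjusted p = 0.903), and 0.05 without that library. AOC3 (AT3G25780) stood at 20.3, 24.7 and 23.8 CPM in wild type and 16.5, 22.7 and 13.6 CPM in the amiRNA line, with 1 amiRNA-VQ1,10 library inside the wild type range (log2 fold change -0.41 ± 0.24, SE; edgeR adjusted p = 0.869). Without amiRNA-VQ1,10 replicate 3 the AOC3 value was -0.25. AOC1, AOC2 and AOC3 lie side by side on chromosome 3 and are close copies. In the RefSeq annotation of TAIR10.1 the longest run of identical bases was 73 between the transcripts of AOC1 and AOC3, but 10 within their last 300 bases, from where 3′ reads come.

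**Figure D2:**
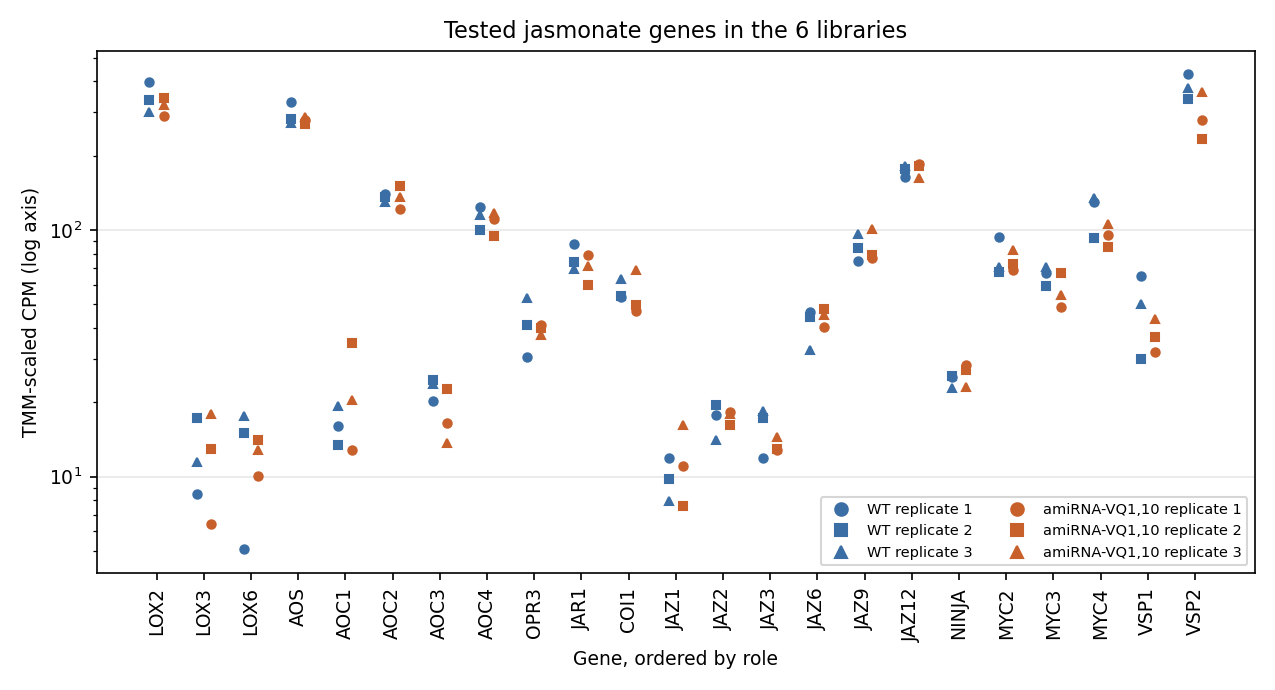
TMM-scaled CPM (vertical log axis) of the 23 tested jasmonate genes in each library, with genes ordered by role from synthesis to response; blue points are wild type, orange points amiRNA-VQ1,10, and the shape gives the replicate. The points of both genotypes overlap for each gene, and the widest spread within a genotype is in genes of low level such as LOX3, LOX6 and AOC1.

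Of the genes that modify, break down and perceive the hormone, only JAR1 and COI1 were tested, and neither passed. JMT, CYP94B3 and CYP94C1 had too few counts for the test. JAR1 (AT2G46370), the enzyme that makes the active isoleucine conjugate, stood at 88.1, 74.1 and 69.6 CPM in wild type and at 78.9, 59.5 and 71.5 CPM in the amiRNA line, with a log2 fold change of -0.13 ± 0.14 (SE; edgeR adjusted p = 0.964). JMT (AT1G19640), which makes the volatile methyl ester, had 21 counts over the wild type libraries and 15 over the others. CYP94B3 and CYP94C1, cytochrome P450 enzymes that oxidise and so inactivate the conjugate, were near the limit of detection. CYP94B3 (AT3G48520) had 6, 3 and 2 counts in wild type and 1, 2 and 0 in amiRNA-VQ1,10. Pooled, this was 3.01 CPM (exact Poisson 95% interval 1.50 to 5.39, for counting error only) against 0.941 CPM (0.194 to 2.75). The intervals overlapped, which is not a test of a difference. With no filter the CYP94B3 log2 fold change was -1.57 (edgeR adjusted p = 0.908). COI1 (AT2G39940), the receptor, stood at 53.4, 53.9 and 63.4 CPM in wild type and 46.8, 49.8 and 69.0 CPM in the amiRNA line. The amiRNA-VQ1,10 libraries thus enclosed the wild type range (log2 fold change -0.03 ± 0.16, SE; 95% interval -0.36 to 0.31; edgeR adjusted p = 0.994).

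The JAZ repressors as a family differed by less than the spread of the libraries. Their summed level was 343, 372 and 367 CPM in wild type and 366, 359 and 370 CPM in the amiRNA line, which all lay within the wild type range. The shares of the 6 tested genes within the family overlapped too. JAZ12 (AT5G20900) made up 47.5% to 49.6% of JAZ counts in wild type and 43.7% to 50.6% in amiRNA-VQ1,10, and JAZ9 21.7% to 26.1% and 21.1% to 27.4%. JAZ6 followed with 8.87% to 13.6% over all libraries. Of the 12 JAZ genes 6 were tested, and 5 of these had a log2 fold change above 0 (median 0.025).

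JAZ1 and JAZ10 are members whose transcripts rise quickly when jasmonate signalling is active. JAZ1 (AT1G19180) stood at 11.9, 9.73 and 7.93 CPM in wild type and at 11.0, 7.58 and 16.2 CPM in the amiRNA line, with the extremes in amiRNA-VQ1,10 replicates 2 and 3 (log2 fold change 0.27 ± 0.34, SE; edgeR adjusted p = 0.969). JAZ10 (AT5G13220) had 6, 8 and 6 counts in wild type and 5, 1 and 4 in amiRNA-VQ1,10. The counts did not overlap, where 10.4% of all tested genes had separate ranges. Pooled, they gave 5.48 CPM (Poisson 95% interval 3.35 to 8.46) against 3.14 CPM (1.50 to 5.77). These intervals overlapped, which is not a test of a difference. With no filter the JAZ10 log2 fold change was -0.79 (edgeR adjusted p = 0.908). JAZ4, JAZ5 and JAZ11 had 0 to 12 counts per library, and JAZ7, another strongly inducible member, had 4 counts in all. JAZ8 had 0 counts in every library, which allows up to 0.821 CPM in wild type and 0.941 CPM in the amiRNA line (3 counts over the libraries of a genotype).

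**Figure D3:**
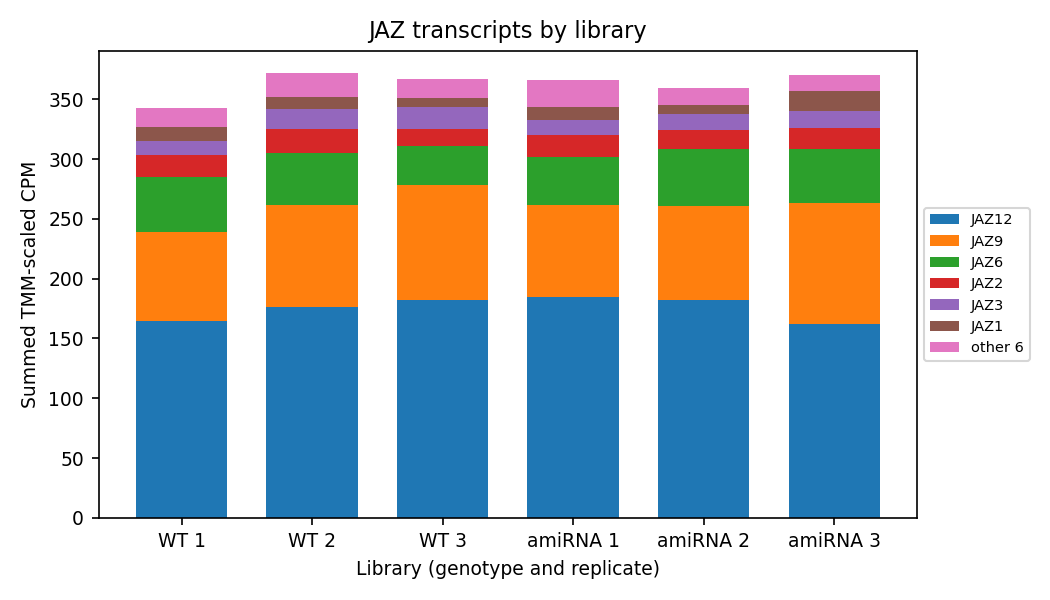
Summed TMM-scaled CPM of the 12 JAZ genes (vertical axis) in each of the 6 libraries, with colours for single genes and for the other 6 together. Bars range from 343 to 372 CPM, and JAZ12 and JAZ9 fill most of each bar in both genotypes.

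NINJA, the adaptor that ties JAZ proteins to the corepressor TOPLESS, lay between 22.9 and 28.4 CPM in all libraries (log2 fold change 0.08 ± 0.21, SE). The MYC factors had estimates below 0, largest in MYC4. MYC2 (AT1G32640), the main activator of the pathway, stood at 94.0, 67.4 and 70.5 CPM in wild type and 68.8, 72.5 and 82.6 CPM in the amiRNA line. Only wild type replicate 1 was above the amiRNA-VQ1,10 libraries (log2 fold change -0.04 ± 0.15, SE; 95% interval -0.35 to 0.26; edgeR adjusted p = 0.990). MYC3 (AT5G46760) stood at 66.9, 59.1 and 70.5 CPM in wild type and 48.6, 67.1 and 54.5 CPM in the amiRNA line, with amiRNA-VQ1,10 replicate 2 inside the wild type range (log2 fold change -0.21 ± 0.15, SE; edgeR adjusted p = 0.910). MYC4 (AT4G17880) stood at 130, 92.8 and 135 CPM in wild type and 95.4, 85.5 and 106 CPM in the amiRNA line. Wild type replicate 2 lay among the amiRNA-VQ1,10 libraries, and the log2 fold change was -0.30 ± 0.14 (SE; 95% interval -0.59 to -0.0097; edgeR adjusted p = 0.810). MYC3 and MYC4 are close relatives of MYC2 that act beside it.

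Of the response genes, VSP2 had the lowest p among the 23 tested members. VSP2 (AT5G24770), a leaf acid phosphatase used as a standard marker of the MYC branch of the response, stood at 427, 341 and 375 CPM in wild type and at 280, 234 and 361 CPM in the amiRNA line. Replicates 1 and 2 of amiRNA-VQ1,10 were below every wild type library, and replicate 3 lay inside the wild type range. The log2 fold change was -0.37 ± 0.12 (SE, n = 3 per genotype; 95% interval -0.62 to -0.13; edgeR adjusted p = 0.431), or 0.771 of the wild type level. Without amiRNA-VQ1,10 replicate 3 the value was -0.56 and VSP2 passed (edgeR adjusted p = 0.0228), and without replicate 2 it was -0.24 (0.830). Its tandem neighbour VSP1 (AT5G24780) stood at 65.2, 29.9 and 50.2 CPM in wild type and 32.1, 36.8 and 43.4 CPM in the amiRNA line. Wild type held both the highest and the lowest library (log2 fold change -0.35 ± 0.22, SE; edgeR adjusted p = 0.880). Without wild type replicate 1 the VSP1 value was -0.07, and without wild type replicate 2 it was -0.62.

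VSP1 made up 8.08% to 13.3% of the counts of both storage proteins in wild type and 10.3% to 13.6% in amiRNA-VQ1,10. Their last 300 transcript bases were 77.7% identical with runs of up to 46 identical bases, and the read length was not known, so the split between both genes is uncertain. TAT3 (AT2G24850), a tyrosine aminotransferase induced by jasmonate, had 0 counts in every wild type library and 1, 2 and 0 in amiRNA-VQ1,10. Pooled, this was 0 CPM (exact Poisson 95% interval 0 to 1.01) against 0.941 CPM (0.194 to 2.75). The intervals overlapped, which is not a test of a difference. The summed leaf markers given above were higher in each amiRNA-VQ1,10 library than in any of wild type (5 genes, 0 of which passed by edgeR, DESeq2 or limma-voom and 1, RBCS1A, had an unadjusted p under 0.05), and the root markers overlapped. The 10 genes induced early by wounding, touch or cold summed to 95.8 to 135 CPM in wild type. In the amiRNA line they summed to 117 to 173 CPM. All 4 tested genes of this list had a log2 fold change above 0 (median 0.52). Of the 4, 0 passed by edgeR, DESeq2 or limma-voom, and 1, TCH3, had an unadjusted p under 0.05 in edgeR. The part of these markers in the VSP2 values was not tested.

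**Figure D4:**
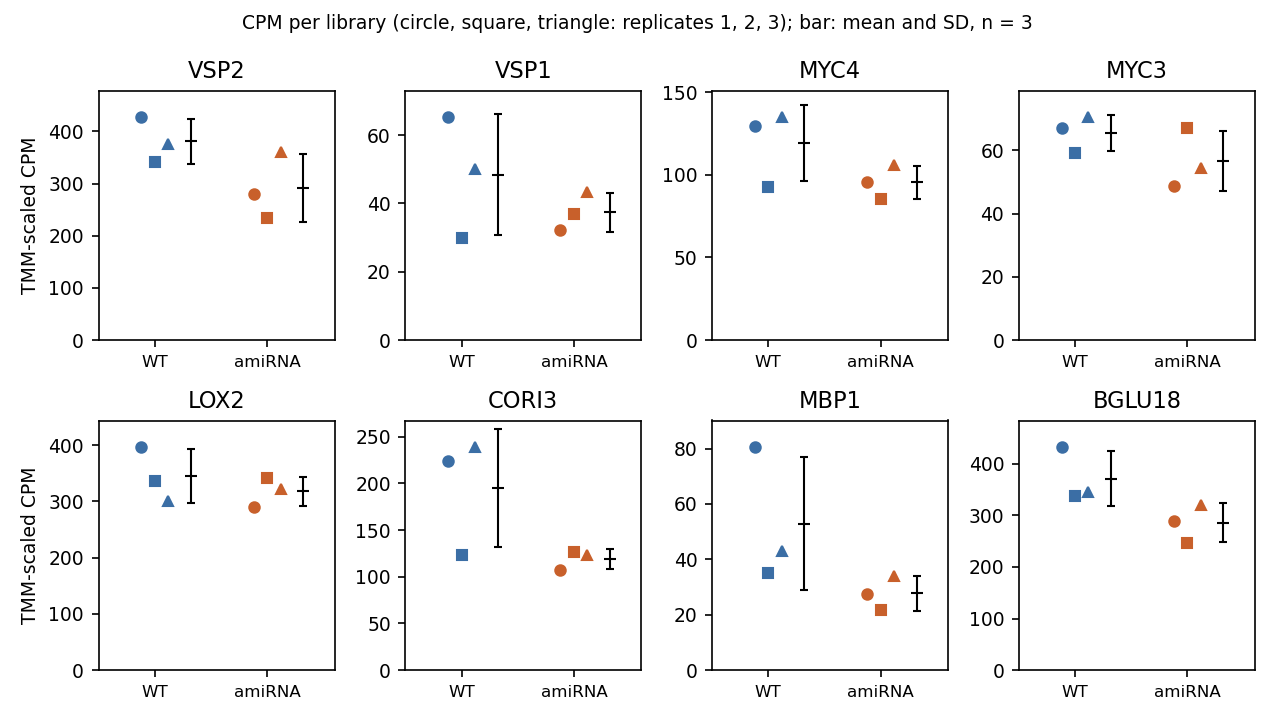
TMM-scaled CPM per library (vertical axes, from 0) of 5 jasmonate genes and of CORI3, MBP1 and BGLU18 from the wider pathway list, with the mean and SD (n = 3) beside the points. For VSP2 amiRNA-VQ1,10 replicate 3 (triangle) lies at 361 CPM inside the wild type range, and for CORI3 wild type replicate 2 (square) lies at 123 CPM among the amiRNA-VQ1,10 libraries.

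Across libraries the genotypes overlapped in the share of counts and the median level of the jasmonate genes, through amiRNA-VQ1,10 replicate 3 alone. In both measures replicates 1 and 2 of that line lay below every wild type library. A joint shift of these genes with genotype was not tested. Their share of all gene counts was 0.239%, 0.211% and 0.220% in wild type and 0.192%, 0.198% and 0.216% in amiRNA-VQ1,10, so that the ranges overlapped. Wild type replicate 1 held the highest value for 7 of the 23 tested genes, among them VSP1, VSP2, LOX2, AOS, JAR1 and MYC2. Replicates 1 and 2 of amiRNA-VQ1,10 each held the lowest value for 6 genes. After centring each gene on its mean over libraries, the median log2 level was 0.046, 0.0081 and 0.064 in wild type and -0.15, -0.055 and 0.049 in amiRNA-VQ1,10, with amiRNA-VQ1,10 replicate 3 inside the wild type range.

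Of 45 further genes of the pathway, 22 were tested and 0 passed by edgeR, DESeq2 or limma-voom, with 3 at an unadjusted p under 0.05 (13.6%, beside 6.02% of all tested genes). This list too was chosen with earlier results of these data known, so its shares are description only. The 10 tested genes of precursor supply and of the peroxisomal steps had log2 fold changes of -0.24 to 0.24. Of the 7 tested response genes of the MYC branch 6 were below 0 (median -0.37). CORI3 (AT4G23600), a cystine lyase induced by the jasmonate mimic coronatine, stood at 224, 123 and 239 CPM in wild type and 107, 127 and 123 CPM in the amiRNA line. Wild type replicates 1 and 3 were far above the other 4 libraries, which lay together. Its log2 fold change was -0.70 ± 0.17 (SE; 95% interval -1.05 to -0.35; edgeR adjusted p = 0.156), and without wild type replicate 2 it was -0.96 and passed (7.9e-05). Without wild type replicate 3 the CORI3 value was -0.53 (edgeR adjusted p = 0.530), and without wild type replicate 1 it was -0.59 (0.646).

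MBP1 (AT1G52040), a myrosinase-binding protein, stood at 80.5, 35.2 and 43.2 CPM in wild type and 27.5, 21.7 and 34.1 CPM in the amiRNA line, with separate ranges. The log2 fold change was -0.89 ± 0.25 (SE; edgeR adjusted p = 0.343), -1.14 without wild type replicate 2, where it passed (0.0331), and -0.47 without wild type replicate 1 (0.982). BGLU18 (AT1G52400), a glucosidase of endoplasmic reticulum bodies that also releases abscisic acid from its glucose ester, stood at 432, 338 and 344 CPM in wild type and 290, 247 and 321 CPM in the amiRNA line, again with separate ranges (log2 fold change -0.37 ± 0.11, SE; edgeR adjusted p = 0.343). The lectins JAL23 and JR1 and the dehydroascorbate reductase DHAR1 had log2 fold changes of -0.43, -0.14 and -0.13, and CLH1, a chlorophyllase, one of 0.09. Among these 7 genes MBP1, BGLU18 and DHAR1 had separate ranges, or 3 of the 22 tested in the wider list (13.6%, beside 10.4% of all tested genes).

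**Figure D5:**
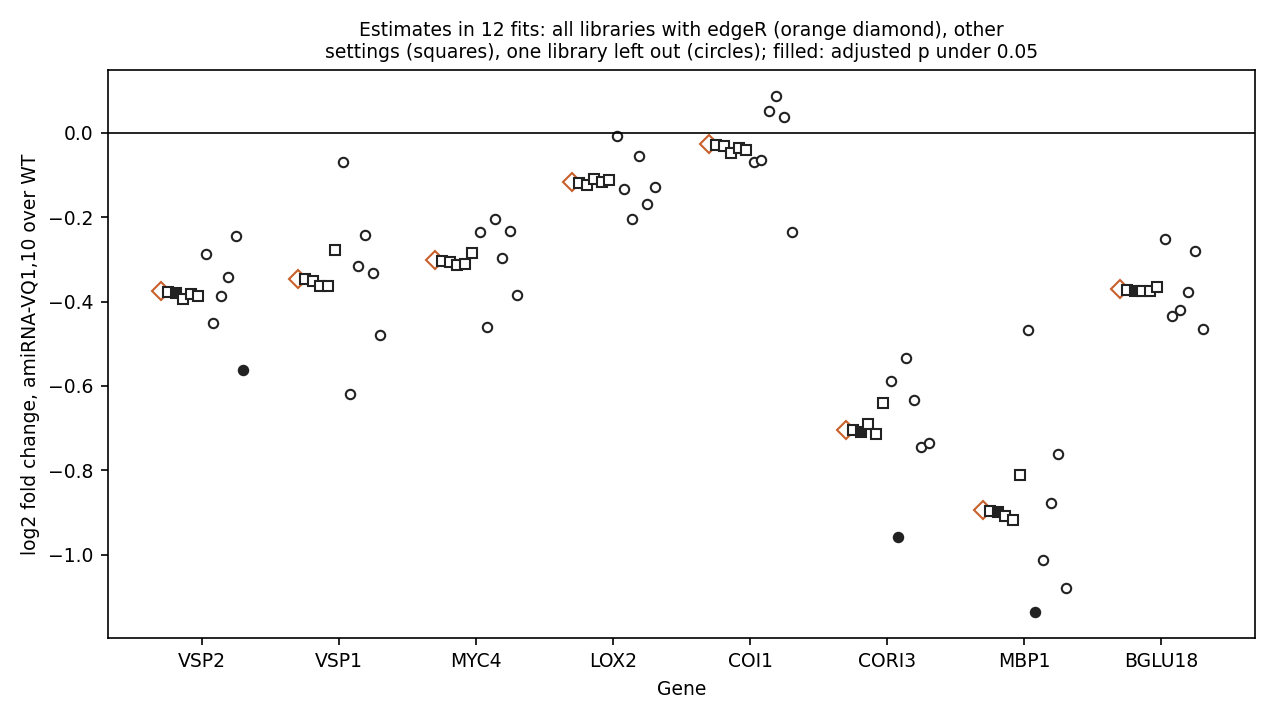
Log2 fold change (vertical axis) of 8 genes in 12 fits: all libraries with edgeR (diamonds), other settings (squares) and fits with a library left out (circles); filled symbols mark an adjusted p under 0.05. VSP2, MYC4, CORI3, MBP1 and BGLU18 stay below 0 in all 12 fits; VSP2, CORI3 and MBP1 pass in 2 of them, BGLU18 in 1 and MYC4 in 0, and COI1 lies on both sides of 0.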

How the data were processed

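The authors deposited unnormalized read counts for each gene, with 1 file for each of 6 libraries. TAIR10 is the build, and STAR, HISAT2 2.0.4 and DESeq2 the tools, that the submitters' processing notes name, without saying which step each served. Per the labels' protocols RNA integrity was above 8, 1 µg of RNA was used and primers carried a 6 bp molecular identifier; whether identical identifiers were collapsed, the counting program and its strand setting are not stated. COI1, JAZ10, JAZ12 and MYC2 overlap a gene on the opposite strand in RefSeq TAIR10.1, which was used for names (32548 of 32833 identifiers matched), overlaps and transcript similarity, with no coordinates. Entries that name no gene (no feature 3.79% to 4.07%, ambiguous 0.103% to 0.109%, multiple alignments 4.40% to 5.45%) stayed out of totals and tests.

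Genes were filtered with filterByExpr (minimum count 10, minimum total 15), scaled by TMM and tested with the quasi-likelihood test of edgeR 4.0.16 in R 4.3.3 on all 6 libraries, p-values being adjusted by Benjamini-Hochberg across the 12701 genes tested. SE was obtained by dividing each log2 fold change by the root of its F statistic. Centred levels used a prior count of 2. The fit was tested on simulated counts with 50 genes changed at each fold. It called 30% of them at 1.5-fold, 64% at 2-fold, 88% at 4-fold and 98% at 8-fold, so small changes were often missed. The simulation had 200 changed genes and called 147 of 12337 tested, against 13 of 12701 in the data. More calls make the adjustment milder, and the simulated spread followed the fitted trend alone. These rates can therefore be higher than those of the fit to the data. Alternatives were RLE scaling, no filter, DESeq2 1.42.0, limma-voom (limma 3.58.1), a replicate block and each library left out. The series' text calls the libraries independent biological replicates, and replicates differed by more than sampling noise (chi-square per degree of freedom 1.27 to 1.66). The members and lists were chosen with earlier results of these data known. Values per library are given for members with 1 of the 8 smallest p, with separate ranges or in a fixed set of pathway genes (LOX2, AOS, OPR3, COI1, MYC2, JAZ1, JAZ10, VSP1, VSP2), and of the wider list the 6 genes with the smallest p are named. Members under the filter are given by raw counts. CLH1, TCH3 and RBCS1A, and the wider pathway genes with few counts in the closing section, were named after their values were seen. Poisson intervals and floors cover counting error only, while intervals of log2 fold changes come from the edgeR fit and include the spread between libraries.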

Additional observations from a re-analysis of the deposited data

How the results depend on the processing

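The count of jasmonate genes past the threshold was 0 in the fit reported and 0 with RLE scaling, DESeq2, limma-voom and the replicate block. It was 1, VSP2, with no filter on low counts (log2 fold change -0.38, adjusted p = 0.0202) and 0 to 1 with a library left out, where the 1 was VSP2 without amiRNA-VQ1,10 replicate 3. Over all genes the count was 13, 92 with no filter, 6 with DESeq2, 8 with limma-voom and 10 to 37 with a library left out. In the wider list, for which the alternatives were added after the data were seen, it was 3 with no filter (CORI3, MBP1 and BGLU18) and 0 to 2 with a library left out. The cause of these shifts was not tested. The median over tested members was -0.12 to -0.026 with a library left out, lowest without amiRNA-VQ1,10 replicate 3.

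Of 209 single-gene values under the alternatives, 194 kept their sign and side of the threshold, 7 newly passed and 8 changed sign. The changes of sign came with a library left out, in 5 genes that passed in none of the fits: AOS ranged from -0.13 to 0.0063, OPR3 from -0.24 to 0.13, COI1 from -0.24 to 0.087, MYC2 from -0.14 to 0.12 and JAZ1 from -0.065 to 0.47. With the replicate number as a block 16 genes and 0 members passed. Libraries of equal number did not deviate together (correlations of -0.0065, -0.025 and -0.032), so the numbers were not taken as pairs. A tested gene had a median of 32 counts per library, and the 11 untested jasmonate genes had too few counts for the test. With no filter the 10 that had counts had an edgeR adjusted p of 0.908 or more. At such low counts this does not show that their levels were equal.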

Other observations

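JAV1, itself a VQ motif protein and a known repressor of jasmonate defence, had 3, 3 and 5 counts in wild type and 3, 2 and 5 in amiRNA-VQ1,10. ERF1, ORA59 and PDF1.2a, of the branch that needs ethylene together with jasmonate, were barely present in both genotypes. ERF1 had 0 counts in every library, ORA59 had 17 counts over wild type and 13 over amiRNA-VQ1,10, and the defensin PDF1.2a had 1 and 3. The thionin THI2.1 had 7, 5 and 3 counts in wild type and 1, 3 and 1 in amiRNA-VQ1,10, or 4.11 CPM (exact Poisson 95% interval 2.30 to 6.77) against 1.57 CPM (0.509 to 3.66). The jasmonate oxidases JOX1, JOX3 and JOX4, strongly induced by the hormone, had at most 2 counts in a library, and JOX2 had 14 counts over wild type and 20 over amiRNA-VQ1,10. MYB21 and MYB24, jasmonate targets in stamens, and TPS04, which makes a herbivore-induced volatile precursor, had 0 counts throughout. In the edgeR fit with no filter the 16 wider pathway genes with some counts but too few for the test had adjusted p of 0.908 to 0.994.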
